A study of Bos taurus with 96 samples.

Results

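Omental fat, the visceral depot that hangs in the membrane over the stomachs, was set against subcutaneous fat taken over the rump in cattle. The 2 depots were chosen by their labels alone: 12 arrays labelled Omen and 12 labelled SC, which together are 24 of the 96 arrays of the series. Each depot held 4 arrays from Angus, 4 from Hereford and 4 from crosses of Wagyu with Angus (Wagyu x). All of the animals grew on pasture, then spent 259 days in a feedlot on grain and were about 26 months old at slaughter, so diet, age and management were shared by both depots. The series also holds kidney fat (Kid), inter-muscular fat (Inter), fat dissected out of muscle and whole longissimus muscle. RNA was hybridised to a 1-colour bovine oligonucleotide array. The labels do not tie arrays to animals, so the p-values measure the spread between arrays. By the study's methods all depots were sampled from the same steers, and the arrays of each breed and depot came from all but 1 of them, so most steers are in both depots. Which arrays share a steer is not given, and the fits treat the arrays as independent.

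White fat is made mostly of adipocytes by mass, but fibroblast-like progenitors, endothelial cells, macrophages, lymphocytes and nerve supporting cells contribute RNA as well. Omental fat lies inside the body cavity under a sheet of mesothelium, drains into the portal vein and holds clusters of immune cells. Subcutaneous fat lies in connective tissue beneath the skin. Cells of each site keep part of the homeobox code that was set in the embryo, which marks position along the body, and they differ in how readily catecholamines release their stored fat. In whole tissue, fewer cells of a type and less RNA per cell cannot be told apart.

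Levels are given as log2 of the background-corrected spot intensity minus the 75th percentile of the array, so 0 is the array's 75th percentile, and a difference is the Omen minus the SC level on that log2 scale with its standard error (SE). Levels of different genes come from different probes and are not compared with each other. Between 77.6% and 96.5% of probes were well above background on the Omen arrays and between 72.4% and 82.1% on the SC arrays, and no spot was saturated. One Omen array from an Angus animal stood apart, with 5528 of 43803 spots marked as outliers by the scanner software against at most 73 on any of the other 23 arrays. Its outlier spots were left out, so genes below with n = 11 lack that array. Correlations between arrays of a depot ran from 0.960 to 0.990 in Omen and from 0.974 to 0.988 in SC, and no array was a copy of another.

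The day of scanning followed the depot closely. Of the SC arrays, 11 were scanned on 1 day with no Omen array, and 1 was scanned with 10 of the Omen arrays, while the other 2 Omen arrays were scanned on a day of their own. A fit of the 24 arrays with a block for scan day, and the shared scan day alone, therefore both rest on 1 SC array, from an Angus animal, which the fits take to vary like the rest. That array, SC Angus 4, stood apart from the other SC arrays for immune genes. It was the highest SC array for 9 of 11 macrophage markers, 17 of 26 complement genes and 6 of 11 T cell markers, against 13.5% of all genes measured on every SC array, and its mean over the macrophage markers was 3.28 against 1.63 to 2.58 on the others. In the fit with no block and without that array, 8 T cell markers were higher and 2 lower, 7 complement genes were higher and 5 lower, no macrophage marker was higher and 3 were lower, and 1 B cell marker was higher and 1 lower. The same block over all 96 arrays draws on the other tissues too. Counts under the blocks are given beside each gene group, and the part of scan day in the rest was not tested.

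The 2 depots differed over much of the array. Of 34227 probes, 15968 (46.7%) passed an adjusted p of 0.05 by limma with breed in the model: 7152 (20.9%) were higher in Omen and 8816 (25.8%) were lower. With 1 probe taken for each of 10653 named genes, 5481 genes (51.5%) passed, of which 2007 (18.8%) were higher and 3474 (32.6%) lower, and the median difference of all genes was -0.09. All 12 Omen arrays lay above all 12 SC arrays for 153 genes (1.44%) and below them for 417 genes (3.91%). In the 24-array fit with that block, 170 genes (1.6%) were higher and 182 (1.71%) lower. The block over 96 arrays left 1250 (11.7%) and 2833 (26.6%), and the shared scan day alone left 60 (0.563%) and 68 (0.638%). The balance depended on background handling. With a normexp background correction, relative to the shift of all probes, 3189 genes were higher and 2539 lower, with a median of 0.025. The shares of 18.8% higher and 32.6% lower in the main fit are the background for the counts of each gene list below.

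**Figure D1:**
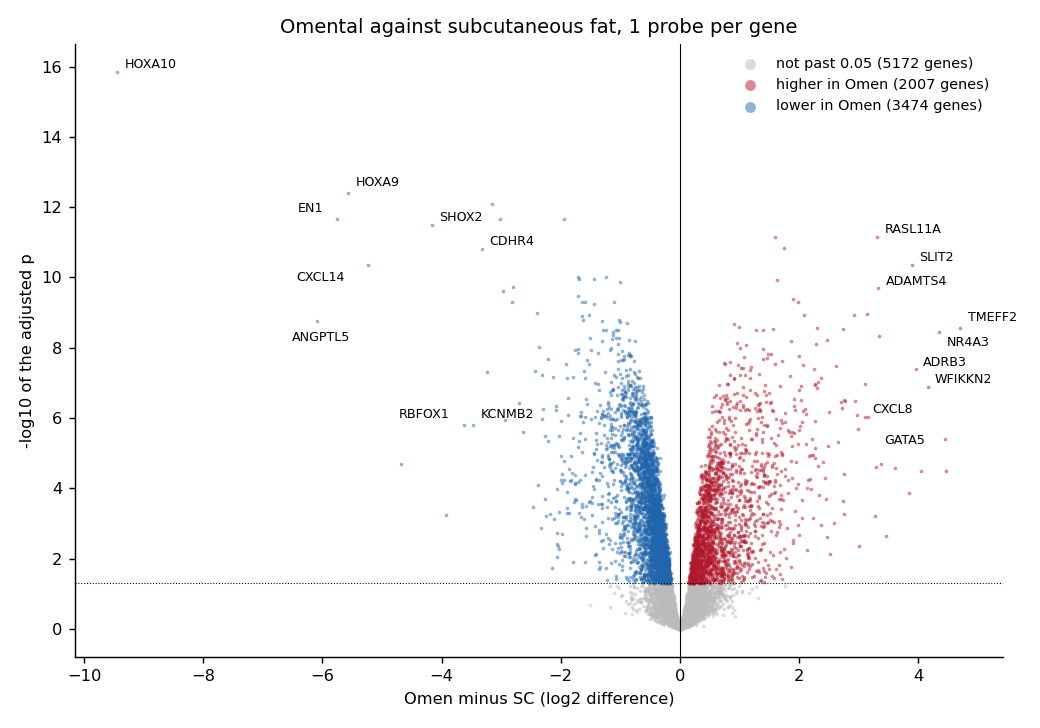
Difference between depots for all 10653 genes. The x axis is the Omen minus SC level (log2) and the y axis is -log10 of the limma adjusted p; each point is 1 gene, coloured by whether it was higher, lower or not past 0.05, with named extremes labelled. HOXA10 stands alone at the far left at -9.44, and TMEFF2 is farthest to the right among the labelled genes at 4.71.

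The adipocyte genes ADIPOQ and PPARG were at similar levels in both depots, while 7 of 18 adipocyte markers were lower in Omen. ADIPOQ, which encodes the adipocyte hormone adiponectin, had a lowest, median and highest level of 3.42, 4.02 and 4.49 over the Omen arrays and 3.43, 4.06 and 4.26 over the SC arrays. PPARG, the master regulator of fat cell formation, differed by -0.16 ± 0.14 (SE, adjusted p = 0.308, limma). The mean over 18 measured adipocyte markers ran from 2.87 to 3.75 in Omen and from 3.02 to 3.48 in SC, so the ranges overlapped. Of the 18, 3 were higher in Omen, 7 (38.9%) were lower and 8 did not pass (median -0.25). The 24-array block left 1 higher and none lower with a median of 0.14, while the 96-array block left 2 higher and 12 lower with a median of -0.64. The 3 higher ones were ADRB3, PCK1, the glyceroneogenic enzyme, at 1.32 ± 0.25 (adjusted p = 0.000182), and LEP, the appetite hormone leptin, at 0.64 (adjusted p = 0.0258). CIDEA, a protein that fuses lipid droplets, and GPD1, which makes glycerol 3-phosphate, had the largest falls, at -0.88 ± 0.22 and -0.83 ± 0.17 (adjusted p = 0.00253 and 0.000413). Both turned sign with the 24-array block, to 0.34 and 0.19, and on the shared scan day, to 0.44 and 0.52, without passing there.

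Some genes of the HOX clusters, which record position along the head to tail axis, separated the depots, in both directions. Of 39 HOX genes, 18 had a named probe, with a median difference of -0.25. Of these, 4 (22.2%) were higher in Omen, 7 (38.9%) were lower and 7 did not pass, close to the 18.8% and 32.6% over all genes. The arrays of the depots did not overlap for 7 of the 18, with Omen above for 3 and below for 4. Such genes were 1.44% (Omen above) and 3.91% (Omen below) of all genes. The lower ones were HOXA9, HOXA10 and HOXC10, of the end of the clusters that acts in the hind part of the body, and HOXA2, HOXC5, HOXC6 and HOXD4. The higher ones were HOXA3, HOXA4, HOXA5 and HOXB2. The scan day block over 96 arrays also gave 4 higher and 7 lower, but HOXA2 and HOXA3 no longer passed there and HOXB3 and HOXB9 did, at 0.62 and -1.23. The 24-array block left 3 higher and 4 lower.

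HOXA10 had the largest measured difference of the 10653 genes, but its Omen level lay at the background. Its lowest, median and highest levels were -9.07, -8.38 and -6.34 in Omen, where only 1 of 12 arrays was well above background, against 0.64, 1.36 and 2.16 in SC, where all 12 were. The difference was -9.44 ± 0.27 (SE, adjusted p = 1.41e-16, limma). Its size depended on how background was handled, since a normexp correction with an offset of 50 gave -5.03, and setting each dim Omen value to the lowest signal well above background on its array gave -8.18. It ranked 1 by size in all of these. It was -9.14 with scan day as a block on 24 arrays and -8.80 on the shared day. HOXA10 was also picked out by the study on these samples, so its direction is not independent evidence.

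HOXA9, the neighbour of HOXA10 in the cluster, ran from -6.02 through a median of -4.04 to -3.22 in Omen and from 0.85 through 1.38 to 1.83 in SC. The groups lay more than the whole spread of either depot apart, and the difference was -5.56 ± 0.25 (adjusted p = 3.94e-13), with -5.46 on the shared scan day. HOXC10, a gene of the hind trunk and hindlimb, was at -5.05, -4.16 and -3.59 in Omen and at -1.57, -0.91 and -0.46 in SC, a difference of -3.15 ± 0.15 (adjusted p = 7.9e-13). HOXD4 fell less, by 1.44 ± 0.09 on the log2 scale (adjusted p = 1.14e-10), again with no overlap. In the other direction HOXB2 ran from -2.21 through -1.93 to -1.56 in Omen and from -3.95 through -3.49 to -3.10 in SC, so every Omen array was above every SC array. Its difference was 1.63 ± 0.10 (adjusted p = 1.17e-10), and those of HOXA5 and HOXA4 were 1.56 ± 0.12 and 1.28 ± 0.10 (adjusted p = 2.96e-09 and 3.21e-09). Members that did not pass included HOXB9 at -0.41, HOXB4 at -0.04, HOXB7 at 0.06 and HOXC4 at 0.12.

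Outside the HOX clusters, 32 of 57 listed positional transcription factors were measured. Of these, 10 (31.25%) were higher in Omen, 14 (43.75%) were lower and 8 did not pass (median -0.15), against 18.8% and 32.6% over all genes. EN1, a homeobox gene of the dorsal trunk and limb, had the largest measured fall of the list: it lay between -7.58 and -5.08 with a median of -6.81 on 11 Omen arrays, 5 of them well above background, and between -1.59 and -0.37 with a median of -0.71 in SC. The difference was -5.75 ± 0.27 (SE, adjusted p = 2.23e-12, limma, n = 11 and 12). Its size is uncertain: it was -5.37 with the dim Omen values set to the lowest signal well above background and -2.95 with normexp, where its rank by size among all genes went from 3 to 11. SHOX2, a limb and trunk homeobox gene, was at -4.44, -3.05 and -2.13 in Omen and at 0.63, 1.04 and 1.45 in SC, a difference of -4.16 ± 0.21 (adjusted p = 3.22e-12). IRX5 and PRRX1, the latter a marker of limb and body wall mesenchyme, also fell with no overlap, by 3.01 ± 0.15 and 2.82 ± 0.20 on the log2 scale, and EMX2 fell by 1.79.

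Among the factors that were higher in Omen, SOX9, a regulator of cartilage and many epithelia, lay between -3.65 and -2.19 with a median of -3.11 on 11 Omen arrays, and between -7.11 and -4.93 with a median of -6.07 in SC, where 2 of 12 arrays were well above background. Its difference was 3.14 ± 0.22 (adjusted p = 1.1e-09), and its size is uncertain: it was 2.87 with the dim SC values set to the lowest signal well above background and 0.92 with normexp relative to the shift of all probes. NR2F1, a nuclear receptor, and MEIS1, a partner of HOX proteins, were higher by 1.46 and 1.39, each with all Omen arrays above all SC arrays. NKX2-3, needed for spleen and gut mesoderm, was higher by 1.76 ± 0.20 (adjusted p = 7.28e-07). GATA5, a factor of heart, gut and mesothelium, had the largest rise of the list, 4.46 ± 0.60 (adjusted p = 3.86e-06), and its Omen arrays split into 2 ranges that are described with the mesothelial markers. With scan day as a block on 24 arrays, 2 of the 32 were higher and 6 lower, and over 96 arrays 6 and 12. GATA4 at 0.55 and TBX4 at -0.23 did not pass.

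**Figure D2:**
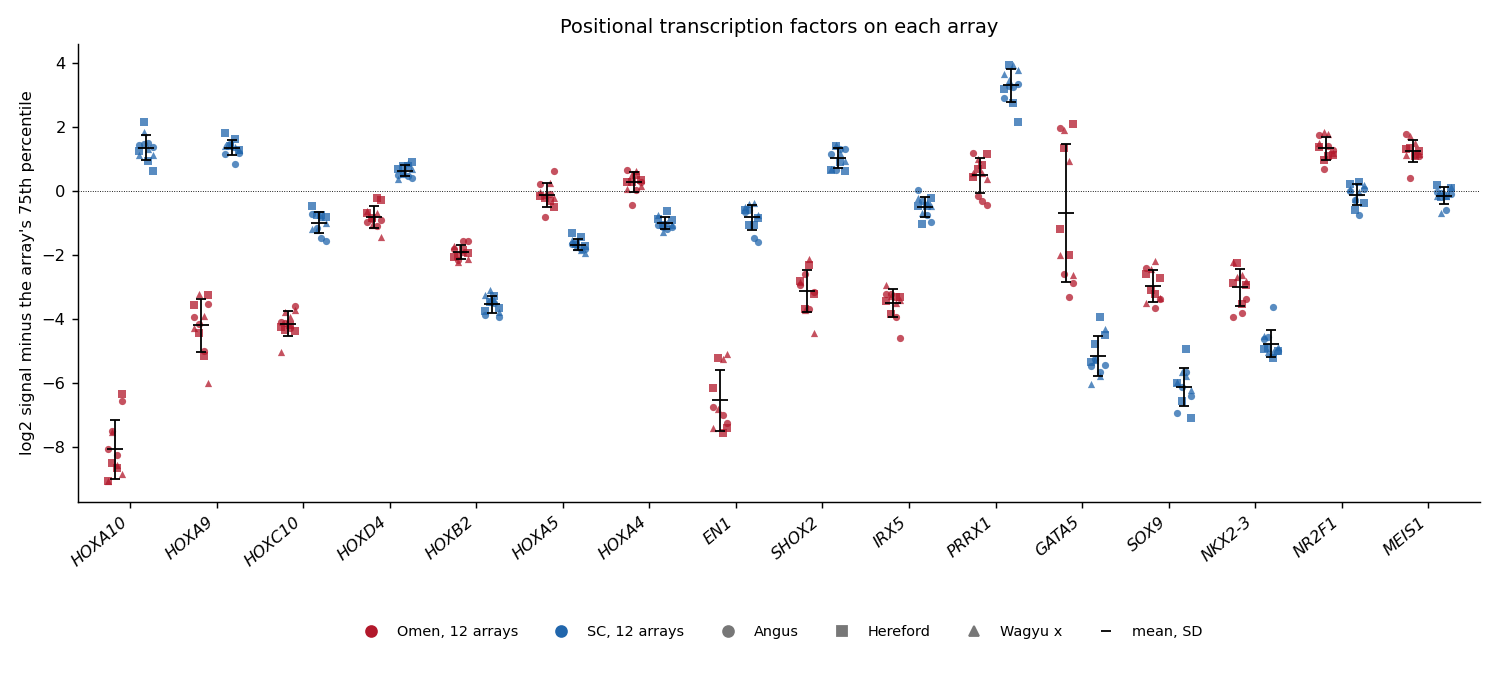
Levels of 16 positional transcription factors on each array. The y axis is log2 intensity minus the array's 75th percentile, each point is 1 array of Omen or SC with its shape giving the breed, and bars are the mean ± SD of a depot. The Omen points of HOXA10, HOXA9, EN1 and SHOX2 sit far below all SC points, those of HOXB2, HOXA5, HOXA4 and SOX9 sit above, and GATA5 spreads over more than 5 log2 units in Omen alone.

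Among all genes whose arrays did not overlap and that were well above background on every array of the higher depot, the 10 with the largest rise in Omen included TMEFF2, GATA5, NR4A3, WFIKKN2, ADRB3, SLIT2, ADAMTS4, RASL11A and CXCL8. TMEFF2, a membrane protein with follistatin-like domains, ran from -0.70 through a median of 0.16 to 1.26 in Omen and from -6.33 through -4.77 to -2.28 in SC. Its difference of 4.71 ± 0.37 (SE, adjusted p = 2.71e-09, limma) was 4.94 on the shared scan day. TMEFF2 was named by the study from these samples. NR4A3, an orphan nuclear receptor that responds quickly to hormones and stress, was at -3.50, -1.86 and -0.92 in Omen and at -7.68, -6.41 and -4.34 in SC, where 4 of 12 arrays were well above background, a difference of 4.35 ± 0.35 (adjusted p = 3.54e-09) that was 3.76 with the dim SC values set to the lowest signal well above background and 1.74 with normexp relative to the shift of all probes. SLIT2, a secreted guidance cue, lay between -1.56 and 0.97 in Omen and between -5.63 and -2.92 in SC, with medians of -0.23 and -4.10. Its difference was 3.89 ± 0.23 (adjusted p = 4.39e-11), and all 4 of its probes gave the same call.

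WFIKKN2, a secreted protein that binds growth differentiation factors, was not well above background on any SC array, so its measured difference of 4.16 ± 0.43 (adjusted p = 1.28e-07) has a bound beside it. Set against the lowest signal well above background on each SC array, or the probe's own where that was higher, it was at least 6.51-fold higher in Omen. ADAMTS4, a protease that cleaves aggrecan and versican in the matrix, ran from 3.44 through 4.44 to 5.19 in Omen and from 0.35 through 1.04 to 2.02 in SC, a difference of 3.33 ± 0.22 (adjusted p = 2.05e-10). RASL11A, a small GTPase-like protein, was at -0.77, 0.22 and 0.65 against -3.90, -3.16 and -2.36, which gives 3.31 ± 0.18 (adjusted p = 6.91e-12). Among those named, GATA5, WFIKKN2 and CXCL8 did not pass with scan day as a block on 24 arrays (3.46, 4.08 and 2.62, adjusted p = 0.28, 0.0733 and 0.191), and all of them passed with the block over 96 arrays.

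The 10 with the largest fall included HOXA10, ANGPTL5, EN1, HOXA9, CXCL14, SHOX2, RBFOX1, KCNMB2 and CDHR4. ANGPTL5, an angiopoietin-like secreted protein, lay between -8.69 and -3.84 with a median of -6.45 on 11 Omen arrays, 7 of them well above background, and between -1.20 and 0.86 with a median of -0.17 in SC. The difference was -6.08 ± 0.45 (SE, adjusted p = 1.74e-09, limma). CXCL14, a chemokine made by skin and adipose cells, ran from -3.83 through -2.60 to -1.45 in Omen and from 1.36 through 2.23 to 3.72 in SC, and its difference of -5.23 ± 0.31 (adjusted p = 4.39e-11) was -6.36 on the shared scan day. CDHR4, of the cadherin family, was at -5.61, -5.13 and -4.24 in Omen and at -3.07, -1.71 and -1.17 in SC, a difference of -3.32 ± 0.19 (adjusted p = 1.51e-11). RBFOX1, a splicing regulator, and KCNMB2, a potassium channel subunit, fell by 3.62 and 3.47 on the log2 scale. Their probes were well above background on 5 and 10 of 12 Omen arrays. With the dim Omen values set to the lowest signal well above background RBFOX1 was at -2.86, and with normexp relative to the shift of all probes the 2 were at -1.26 and -1.68. KCNMB2 did not pass with the 24-array block (-3.12, adjusted p = 0.169), and all those named passed with the block over 96 arrays.

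Several enzymes that make fatty acids were lower in omental fat. Of 18 measured lipogenic genes, 9 were lower, 2 were higher and 7 did not pass, with a median difference of -0.48 against -0.09 for all genes. Over all genes 32.6% were lower. SCD, the desaturase that makes oleic acid, ran from 6.61 through a median of 7.57 to 8.23 in Omen and from 8.30 through 8.83 to 9.16 in SC, so no array overlapped, and all 7 of its probes gave the same call. Its difference was -1.31 ± 0.15 (SE, adjusted p = 7.57e-07, limma), or 2.47-fold. ACACA, which catalyses the committed step to malonyl-CoA, lay between -2.33 and 0.62 in Omen and between -0.07 and 1.31 in SC, with medians of -0.70 and 0.63 and a difference of -1.41 ± 0.24 (adjusted p = 5.43e-05). ACSS2, which activates acetate, the main carbon source of ruminant lipogenesis, was lower by 1.36 ± 0.23 (adjusted p = 5.75e-05), and FASN, the fatty acid synthase, by 0.996 (adjusted p = 0.00242). SLC25A1, PGD, ME1, ELOVL6 and TKT were lower by 0.46 to 0.97.

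FADS2, the desaturase of polyunsaturated fatty acids, went the other way. It was at -2.33, -0.78 and -0.23 in Omen and at -2.99, -2.05 and -1.71 in SC, a difference of 1.41 ± 0.18 (adjusted p = 1.58e-06), and 2.07 on the shared scan day. ACLY, which makes acetyl-CoA from citrate and has a small role in ruminants, was higher by 0.41 (adjusted p = 0.0205). SREBF1 and MLXIPL, the transcription factors that drive lipogenesis, differed by 0.06 and -0.39 and did not pass. Under the 24-array scan day block FADS2 was the only one of the 18 past the threshold (2.02, adjusted p = 0.0284), while SCD was at -0.89 (adjusted p = 0.289) and the list's median was -0.12. With the block over 96 arrays 13 of the 18 were lower, the median was -1.09 and SCD was at -2.003 (adjusted p = 7.28e-07).

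**Figure D3:**
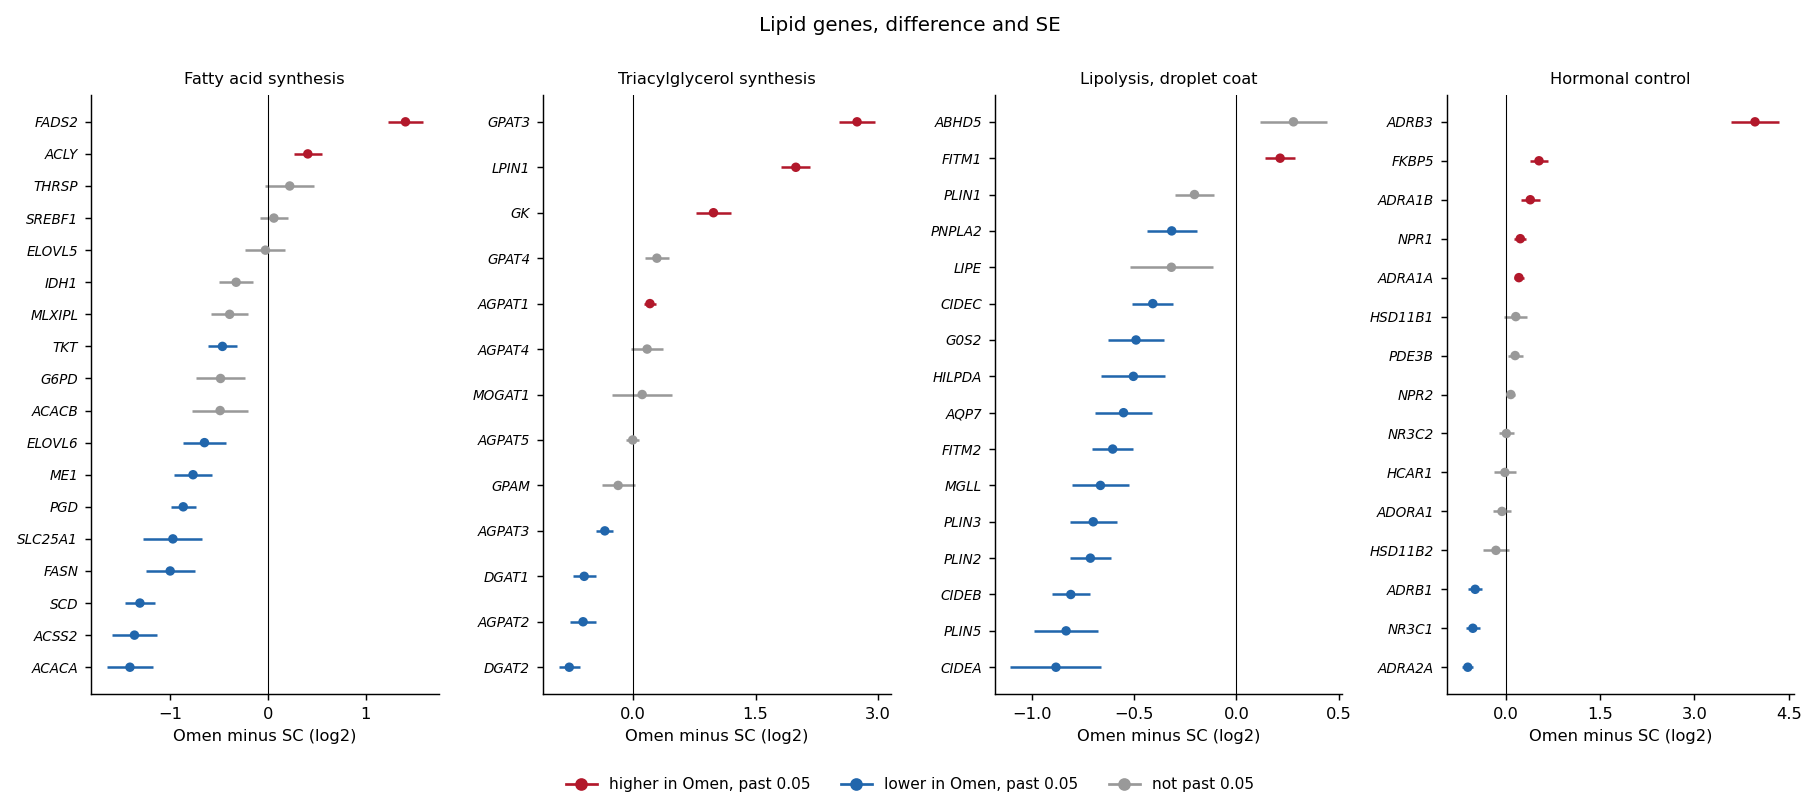
Difference between depots for genes of fatty acid synthesis, triacylglycerol synthesis, lipolysis and the droplet coat, and hormonal control. The x axis is the Omen minus SC level (log2), points are the limma differences, lines are ± 1 SE, and the vertical line is 0. GPAT3 at 2.74, LPIN1 at 1.99 and ADRB3 at 3.96 lie far to the right, while most genes of synthesis and lipolysis lie between 0 and -1.41.

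Of 13 measured genes of triacylglycerol assembly, 4 were higher, 4 (30.8%) were lower and 5 did not pass (median 0.11). GPAT3, an acyltransferase of the first step, lay between 2.34 and 4.08 with a median of 3.40 in Omen and between -0.43 and 1.39 with a median of 0.39 in SC, with no overlap. The difference was 2.74 ± 0.22 (SE, adjusted p = 2.96e-09, limma), or 6.69-fold, and 3.46 on the shared scan day, and its 3 probes gave the same call. LPIN1, the phosphatidate phosphatase and coactivator, ran from -3.14 through -1.99 to -1.53 in Omen and from -5.12 through -4.24 to -2.84 in SC, a difference of 1.99 ± 0.18 (adjusted p = 1.67e-08). GK, which phosphorylates glycerol, was higher by 0.98 (adjusted p = 0.000648), and AGPAT1 by 0.21. DGAT2, DGAT1, AGPAT2 and AGPAT3 were lower: DGAT2, which adds the last acyl chain, by 0.78 ± 0.13 (adjusted p = 5.13e-05). GPAM, the mitochondrial partner of GPAT3 in the first step, differed by -0.18 and did not pass. GPAT3 and LPIN1 passed with scan day as a block on 24 arrays, at 3.05 and 2.80 (adjusted p = 0.0108 and 0.00338), whereas DGAT2 was at -0.21 (adjusted p = 0.794). They were the 2 calls left there, and the 96-array block left 2 higher and 3 lower.

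Genes of lipolysis and the lipid droplet coat were mostly lower in Omen: of 16 measured, 12 (75%) were lower, 1 (6.25%) was higher and 3 did not pass (median -0.53), against 32.6% lower and 18.8% higher over all genes. CIDEB, a droplet fusion protein, ran from -1.80 through -1.21 to -0.84 in Omen and from -0.70 through -0.50 to -0.11 in SC, with no overlap and a difference of -0.81 ± 0.09 (adjusted p = 4.32e-07). PLIN5 and PLIN2, coats of droplets in oxidative and many other cells, were lower by 0.83 and 0.71, and PLIN1, the coat of the adipocyte droplet, differed by -0.21 and did not pass (adjusted p = 0.0764). PNPLA2, the first lipase of the pathway, was lower by 0.32 (adjusted p = 0.0368), whereas LIPE, the hormone-sensitive lipase, was at -0.32 with an adjusted p of 0.202. MGLL, the monoacylglycerol lipase, was lower by 0.67 and G0S2, the PNPLA2 inhibitor, by 0.49. The 24-array scan day block left none of the 16 past the threshold and a median of -0.00, with CIDEA at 0.34 (adjusted p = 0.806). The block over 96 arrays left 12 lower and 1 higher, with a median of -0.86 and CIDEB at -0.30 (adjusted p = 0.193).

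Of 14 fatty acid uptake and binding genes, 4 (28.6%) were lower, close to the 32.6% over all genes, and none was higher (median -0.24). FABP4, the adipocyte fatty acid carrier, lay between 7.75 and 8.49 in Omen and between 8.22 and 8.98 in SC, with medians of 8.28 and 8.65 and a difference of -0.43 ± 0.08 (adjusted p = 0.000115); quantile normalization gave 0.06. ANGPTL4, an inhibitor of lipoprotein lipase, SLC27A6, a fatty acid transporter, and ACSL4, which activates arachidonate, were lower by 0.60, 0.72 and 0.58. LPL and CD36 differed by -0.09 and -0.21 and did not pass. None of the 14 passed with the 24-array block, 8 were lower with the 96-array block, and 7 were lower without the array Omen Angus 4.

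Receptors that control lipolysis differed by subtype. Of 16 measured genes of hormonal control, 6 (37.5%) were higher, 3 (18.75%) were lower and 7 did not pass (median 0.12). The shares over all genes were 18.8% and 32.6%. ADRB3, the beta-3 adrenergic receptor of adipocytes, ran from -2.66 through a median of 0.28 to 1.42 in Omen and from -4.97 through -4.09 to -3.09 in SC, so the depots did not overlap. The difference was 3.96 ± 0.38 (SE, adjusted p = 4.08e-08, limma), or 15.6-fold. It was 4.97 with scan day as a block on 24 arrays (adjusted p = 0.00309), 5.44 on the shared day, against 1 SC array, and 3.78 with the block over 96 arrays. ADRB1, the beta-1 receptor, was lower by 0.48 (adjusted p = 0.00129), and so was ADRA2A, the alpha-2A receptor that restrains lipolysis, by 0.60 ± 0.09 (adjusted p = 6.85e-06). Of the glucocorticoid genes, FKBP5, a response gene, was higher by 0.53 and NR3C1, the receptor, was lower by 0.52, while HSD11B1, which regenerates cortisol, differed by 0.16 and did not pass. With the 24-array block ADRB3 was the only one of the 16 past the threshold, and with the 96-array block 2 were higher and 1 lower.

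Of 26 measured complement genes, 5 (19.2%) were higher in Omen, 5 were lower and 16 did not pass (median -0.18). The share that was higher was close to the 18.8% over all genes and the share that was lower was under the 32.6%. CFI, a protease that inactivates complement fragments, lay between -2.30 and 3.19 with a median of 0.07 on 11 Omen arrays and between -4.004 and -2.08 with a median of -2.77 in SC, higher by 3.37 ± 0.52 (SE, adjusted p = 2.05e-05, limma). Its 5 highest Omen values came from the 5 arrays with high MSLN described with the mesothelial markers, and without those arrays it was higher by 2.11. C7 was higher by 1.47 (adjusted p = 7.76e-05), C3 by 1.61 ± 0.55 (adjusted p = 0.0196; 0.24 without those arrays) and C4A by 0.62. MASP1, a protease of the lectin pathway, C8G, CLU, C1R and C2 were lower, by 1.27, 0.93, 0.77, 0.54 and 1.34. Under the 24-array scan day block none of the 26 was higher and 1 was lower, with a median of -1.09, resting on SC Angus 4, and with CFI at 1.67 (adjusted p = 0.541) and C3 at -0.30 (adjusted p = 0.944). The call left was MASP1 at -1.79 (adjusted p = 0.0343). Over 96 arrays 5 were higher and 6 lower, CFI among the higher at 3.55.

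More chemokines were higher than lower in omental fat, with CXCL14 the largest fall. Of 23 measured, 9 (39.1%) were higher, 4 (17.4%) were lower and 10 did not pass, with a median of 0.54. The shares over all genes were 18.8% and 32.6%. CXCL8, which draws neutrophils, ran from -1.41 through -0.53 to 3.20 in Omen and from -4.39 through -3.18 to -2.14 in SC, with no overlap and a difference of 3.11 ± 0.38 (adjusted p = 9.29e-07). Its highest value came from a single Wagyu x array, and the next highest Omen array was at 0.41. CCL11, the eosinophil attractant, lay between -6.08 and 0.03 on 11 Omen arrays and between -8.15 and -5.28 in SC, where 2 of 12 arrays were well above background, a difference of 3.61 ± 0.57 (adjusted p = 2.71e-05). It was 2.82 with the dim SC values set to the lowest signal well above background and 1.18 with normexp relative to the shift of all probes. CCL2, the monocyte attractant, was at 2.68, 4.39 and 6.65 against 0.66, 2.49 and 4.52, which gives 1.98 ± 0.45 (adjusted p = 0.00112). CCL19, CXCL2 and CCL8 were higher by 1.95, 1.70 and 1.41, and CCL26, CCL25 and CXCL12 were lower by 1.74, 0.56 and 0.48. The 24-array block left CXCL14 as the only call, with a median of -0.35, CCL11 at 3.92 (adjusted p = 0.191) and CCL2 at 1.66 (adjusted p = 0.536). The 96-array block left 8 higher and 4 lower.

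Most T cell markers were higher in Omen: 8 of the 11 measured (72.7%), with 2 (18.2%) lower and 1 not past (median 0.84). The shares over all genes were 18.8% and 32.6%. ZAP70, the kinase of the T cell receptor, ran from -3.07 through a median of -2.50 to -1.46 in Omen and from -4.74 through -4.27 to -3.88 in SC, so every Omen array was above every SC array. The difference was 1.86 ± 0.16 (adjusted p = 6.61e-09), or 3.63-fold. CD3G and CD3E, chains of the receptor complex, were higher by 1.41 and 1.13, and CD8A and CD8B, the coreceptor of cytotoxic cells, by 0.84 and 1.13. CD8B turned to -0.082 with the 24-array block and to -0.15 with normexp relative to the shift of all probes. On the shared scan day CD8B was at -0.59 and CD3E at -0.12. CD4 was lower by 0.39 and CD3D by 0.28, though another probe of CD3D was called the other way. The mean over the 11 markers ran from -1.65 to -0.56 in Omen and from -2.26 to -1.49 in SC. In the 24-array scan day fit, which rests on SC Angus 4, none of the 11 passed and the median was 0.04, with ZAP70 at 1.30 (adjusted p = 0.102) and CD3E at 0.04 (adjusted p = 0.981). On that array the mean over the 11 markers was -1.49, the highest in SC, and on the other SC arrays it was at most -1.79. Its part in the lost calls was not tested. The block over 96 arrays left 7 higher and none lower.

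Of 7 B cell markers none was higher and 2 were lower, PAX5 by 0.70 and CD79A by 0.24. The other 5, MZB1, BLK, CR2, MS4A1 and JCHAIN, lay between 0.17 and 0.85 and did not pass, so the median was 0.42. Neither scan day block left a B cell marker past the threshold, with medians of -0.52 on 24 arrays and -0.07 over 96. CD79A lost its call when any of 8 single arrays was left out (adjusted p up to 0.0621). Of 11 macrophage markers none was higher and 3 were lower (median -0.18). CD163, a scavenger receptor of resident macrophages, lay between -1.35 and 0.94 with a median of -0.22 in Omen and between 0.20 and 2.99 with a median of 2.09 in SC, and it was lower by 2.29 ± 0.26 (SE, adjusted p = 5.46e-07, limma). VSIG4, a complement receptor of the same cells, was lower by 1.19 (adjusted p = 0.00384) and LYZ by 0.36. CD68, CSF1R, CD14 and the C1q chains C1QA and C1QB lay between -0.21 and 0.32 and did not pass. CD163 was at -2.75 with the 24-array block (adjusted p = 0.0536) and at -2.76 with the 96-array block (adjusted p = 3.56e-09), and the blocks left none and 2 of the macrophage markers lower. The median of the list was -1.36 with the 24-array block and -1.31 on the shared scan day, where SC Angus 4 is the only SC array, and -0.32 with the 96-array block.

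**Figure D4:**
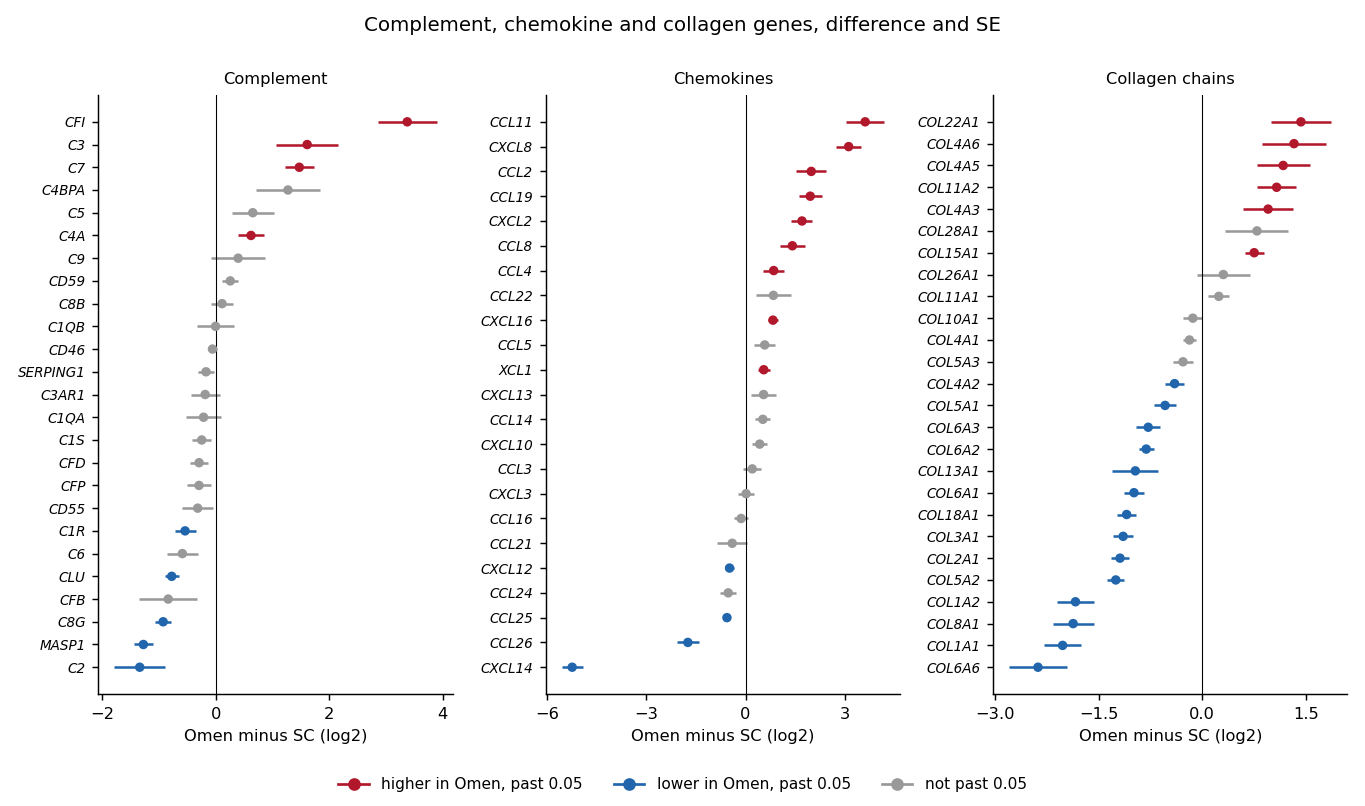
Difference between depots for complement, chemokine and collagen genes. The x axis is the Omen minus SC level (log2), points are the limma differences, lines are ± 1 SE, and the vertical line is 0. CXCL14 at -5.23 is the far left point, CFI, CXCL8 and CCL11 lie above 3, and the collagen chains COL1A1, COL1A2, COL3A1 and COL5A2 lie to the left of -1.

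The main fibrillar collagen chains were lower in omental fat. Of 26 measured collagen genes, 14 (53.8%) were lower, 6 (23.1%) were higher and 6 did not pass (median -0.47), against 32.6% lower and 18.8% higher over all genes. The arrays did not overlap for 5 of the lower ones, and over all genes Omen lay below without overlap for 3.91%. COL1A1, the main chain of type I collagen, ran from 2.42 through a median of 4.41 to 5.46 in Omen and from 5.49 through 6.27 to 6.93 in SC. The lowest SC array was thus just above the highest Omen array, and the difference was -2.02 ± 0.27 (SE, adjusted p = 3.17e-06, limma), or 4.06-fold. It was -2.83 with scan day as a block on 24 arrays (adjusted p = 0.047), -3.47 on the shared day, against 1 SC array, and -1.20 over 96 arrays (adjusted p = 0.00804). COL1A2, COL3A1 and COL5A2 were lower by 1.83, 1.14 and 1.25, the chains of beaded type VI collagen COL6A1, COL6A2 and COL6A3 by 0.99, 0.81 and 0.78, and COL8A1 and COL6A6 by 1.87 and 2.38. The 6 higher genes were COL15A1, of the basement membrane zone, at 0.75, the basement membrane chains COL4A3, COL4A5 and COL4A6 at 0.95, 1.17 and 1.33, COL22A1 at 1.43 and COL11A2, while COL4A1 differed by -0.19 and did not pass. COL4A5 and COL4A6 followed the 5 Omen arrays with high MSLN and were at 0.33 and 0.31 without them, where 3 collagen genes were higher and 11 lower. COL11A2 was not well above background on any SC array, and no fold is given for it, since its Omen mean lay below the lowest signal well above background on the SC arrays. COL4A3 was well above background on 5 of 12 SC arrays and was at -0.20 with normexp relative to the shift of all probes. The 24-array block left COL15A1 higher and COL1A1 and COL2A1 lower, and the 96-array block left 5 higher and 11 lower.

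Of 20 measured signals of the BMP and TGF-beta family, 5 (25%) were higher, 6 (30%) were lower and 9 did not pass (median 0.16), against 18.8% and 32.6% over all genes. BMP4, which commits progenitors to the fat lineage, lay between -0.90 and 1.30 with a median of 0.43 in Omen and between -1.54 and -0.46 with a median of -0.96 in SC, a difference of 1.30 ± 0.20 (adjusted p = 1.7e-05). BMP5 ran from -3.002 through -2.63 to -1.67 in Omen and from -1.38 through -1.02 to -0.53 in SC, so Omen was below on every array, with a difference of -1.52 ± 0.14 (adjusted p = 2.83e-08). INHBA, the activin A chain, and LTBP1, a carrier of latent TGF-beta, were higher by 1.32 and 1.12. BMP2 and the BMP and activin antagonists NOG and FST were lower by 1.12, 1.30 and 1.12. None of the 20 passed with the 24-array block, where BMP4 was at 1.16 (adjusted p = 0.267), BMP5 at -1.06 (adjusted p = 0.142) and NOG at -0.17 (adjusted p = 0.933); with the 96-array block 4 were higher and 6 lower.

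In the WNT list 2 of 15 (13.3%) were higher, 3 (20%) were lower and 10 did not pass (median -0.00). Both shares were under the 18.8% and 32.6% over all genes. DKK2, an antagonist of the WNT coreceptor, lay between -3.16 and 0.90 in Omen and between 0.74 and 1.55 in SC, with medians of -0.83 and 1.19 and a difference of -1.94 ± 0.30 (adjusted p = 1.71e-05). WNT2, a ligand, and SFRP4, a secreted decoy receptor, were lower by 1.85 and 1.83, and DKK1 and WNT2B were higher by 1.01 and 0.70. DKK1 was well above background on 5 of 12 SC arrays and was at -0.11 with normexp relative to the shift of all probes. None passed with the 24-array block, with DKK2 at -2.12 (adjusted p = 0.187), and the 96-array block left 1 higher and 3 lower.

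Retinoid genes had 3 of 17 (17.6%) higher and 5 (29.4%) lower (median -0.10), close to the 18.8% and 32.6% over all genes. CRABP2, which carries retinoic acid to its receptor, was at -4.31, -2.99 and -1.12 in Omen and at -1.45, -0.38 and 0.44 in SC, a difference of -2.22 ± 0.30 (adjusted p = 4.51e-06) that was -2.33 with the 24-array block (adjusted p = 0.154) and -1.93 with the 96-array block (adjusted p = 1.41e-05). RBP4, the plasma retinol carrier, was lower by 0.76, and RARRES1, a retinoid response gene, was higher by 0.64. RBP4 turned to 0.07 and RARRES1 to -0.10 with the 24-array block, and to 0.19 and -0.0079 on the shared scan day. CYP26A1, which degrades retinoic acid, was at 0.81 (adjusted p = 0.0284) with 2 of 12 SC arrays well above background. The direction of CYP26A1 is not settled. It turned to -0.36 with normexp relative to the shift of all probes, past the threshold the other way (adjusted p = 0.00718), and to -0.53 and -0.37 with the 24-array block and on the shared scan day, and it lost its call when any of 6 single arrays was left out (adjusted p up to 0.0535). None of the 17 passed with the 24-array block, and with the 96-array block 1 was higher and 3 lower.

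Some mesothelial markers divided the Omen arrays themselves. Of 26 listed markers 10 were measured, and 5 (50%) were higher in Omen, 2 (20%) were lower and 3 did not pass (median 0.87). The shares over all genes were 18.8% and 32.6%. MSLN, the mesothelial surface protein mesothelin, was at 0.09 to 0.72 on 5 Omen arrays and at -6.09 to -3.79 on the other 7, while SC lay between -6.77 and -4.73. The 5 arrays were 1 Angus, 2 Hereford and 2 Wagyu x. The same 5 arrays held the 5 highest Omen values of 5 of the 10 markers, MSLN included: the others were KRT18, an epithelial keratin, CLDN1, a tight junction protein, GPM6A and UPK3B, a uroplakin of mesothelium. Over all genes this held for 195 of 10643 (1.83%), counting those that lacked 1 of the other 7 arrays over the arrays measured. It did not hold for CLDN15, EZR, UPK1B, KRT8 and KRT19. The 5 markers higher in Omen were MSLN, KRT18, CLDN1, GPM6A and CLDN15. CLDN15 lay between 2.43 and 4.32 in Omen and between 1.46 and 3.43 in SC. Its highest value came from Omen Hereford 1, an array outside the 5. The mean over the 10 markers ran from -0.54 to 2.18 in Omen and from -0.69 to -0.22 in SC. WT1, CALB2 and KRT7, which also define mesothelium, had no named probe and were not analysed here.

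Against SC, CLDN1 was higher by 3.85 ± 0.71, MSLN by 3.02 ± 0.81, KRT18 by 2.52 ± 0.74 and GPM6A by 1.71 ± 0.66 (SE, adjusted p = 0.000138, 0.00426, 0.00744 and 0.0381, limma). Without the 5 arrays, a choice made after seeing the data, the differences were 2.004 for CLDN1, 0.80 for MSLN, 0.54 for KRT18, -0.10 for GPM6A and -0.63 for UPK3B, with 2 of the 10 markers higher, 3 lower and a median of -0.11. The arrays were chosen by MSLN and held the highest values of these 5 genes, so a smaller difference without them was fixed by the choice, and these values are a description. GPM6A also lost its call when any of 10 single arrays was left out (adjusted p up to 0.0728). None of the 10 passed with scan day as a block on 24 arrays, and with the block over 96 arrays CLDN1, MSLN, KRT18, GPM6A and UPK3B were higher. KRT19 and KRT8 were lower by 0.48 and 0.31, though another probe of KRT8 was called the other way.

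Genes of other groups followed the same 5 arrays. GATA5 was at 0.95 to 2.09 on them and at -3.32 to -1.19 on the other 7, and without them its difference from SC was 2.84. C3, the central complement protein, was at 5.07 to 5.16 on the 5 and at 1.02 to 2.56 on the 7. The 5 were the highest for 10 of 26 complement genes: C3, CFB, CFI, C2, C1QA, C1QB, C1R, C4A, C4BPA and CD55. CFI was at 1.10 to 3.19 on them and at -2.30 to 0.07 on the other 6 arrays that measured it. Without them 3 complement genes were higher and 10 lower, with CFB, which forms the alternative pathway convertase, at -2.02 against -0.84 with them. COL4A5, COL4A6, PDPN, BAMBI, NCAM1 and CD8B also had their 5 highest Omen values on these arrays. ADIPOQ did not divide in this way. The T cell list without the 5 arrays had 7 higher and 2 lower (median 0.57), with CD8B at 0.48. How far mesothelial cells on those pieces of tissue contribute to these levels was not tested.

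**Figure D5:**
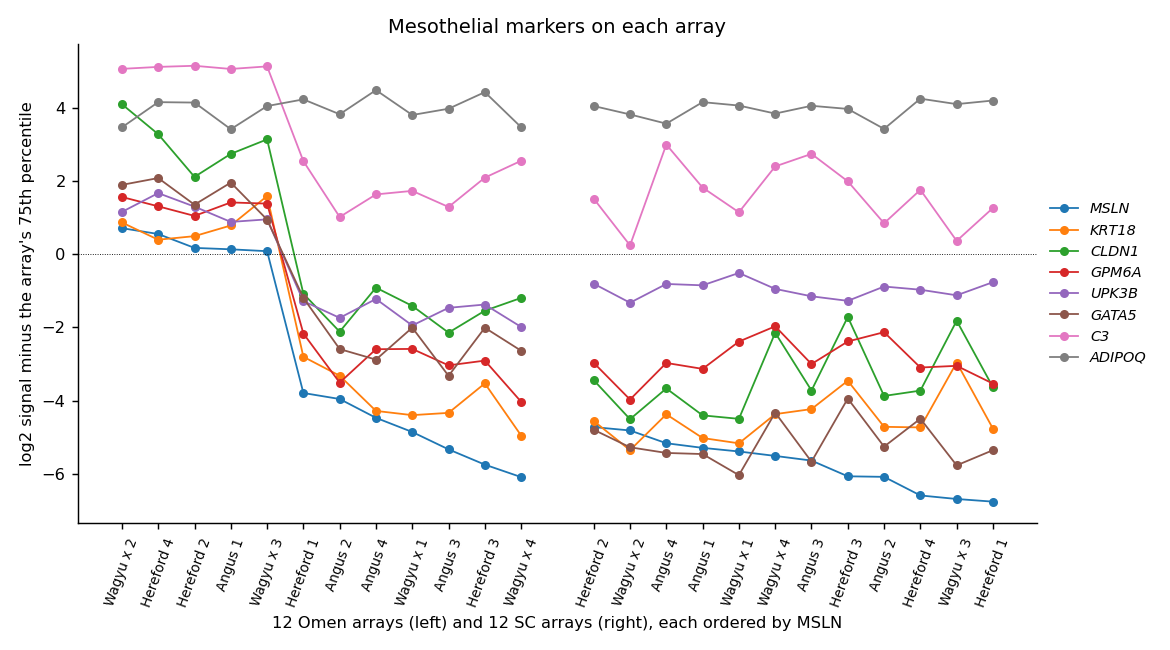
Levels of 5 mesothelial markers, GATA5, C3 and ADIPOQ on every array. The y axis is log2 intensity minus the array's 75th percentile, and the x axis holds the 12 Omen arrays on the left and the 12 SC arrays on the right, each ordered by MSLN. The 5 Omen arrays with MSLN above 0 stand apart for the markers, GATA5 and C3, whereas ADIPOQ stays between 3.42 and 4.49.

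Vessel markers did not move as 1 group. Of 11 endothelial markers, 4 (36.4%) were higher in Omen, 2 (18.2%) were lower and 5 did not pass (median -0.04). The shares over all genes were 18.8% and 32.6%. FLT1, a receptor of vascular endothelial growth factor, lay between -2.87 and -1.47 with a median of -2.02 on 11 Omen arrays and between -4.37 and -3.71 with a median of -4.03 in SC, with no overlap and a difference of 1.91 ± 0.13 (SE, adjusted p = 4.2e-10, limma). KDR, the main signalling receptor for the same factor, was at 0.36, 1.06 and 1.72 against -0.51, -0.10 and 0.26, higher by 1.06 ± 0.11 (adjusted p = 2.22e-07). TEK, the angiopoietin receptor, was higher by 0.56 and ROBO4 was lower by 0.42, while PECAM1 and CDH5, which all endothelium carries, differed by -0.14 and -0.12 and did not pass. FLT1 was the 1 call left by the 24-array block, at 2.04 (adjusted p = 0.00313), and the 96-array block left 4 higher and none lower. Of 6 lymphatic markers, PROX1, PDPN and MMRN1 were higher, by 1.66, 1.27 and 1.06, and LYVE1 at 0.57 did not pass. All 3 turned sign on the shared scan day, to -0.27, -0.09 and -0.27, and PROX1 was at -0.13 with normexp relative to the shift of all probes. PDPN had its highest values on the 5 arrays with high MSLN and was at 0.25 without them. The 24-array block left none of the 6 and the 96-array block 2 higher, and without the array Omen Wagyu x 4 there were 5 higher.

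Of 12 skeletal muscle markers none was higher and 6 were lower in Omen. MYH1 and MYL2, a myosin heavy and a light chain, were lower by 2.26 and 1.99, but their probes were well above background on 2 Omen and 7 SC arrays. With the dim Omen values at the lowest signal well above background they were at -1.08 and -0.51, and MYH1 was at 0.0007 on the 1 slide with both depots. CKM and ACTA1, abundant in all muscle fibres, differed by -0.28 and 0.07 and did not pass. The mean over the 10 smooth muscle markers ran from 0.61 to 1.66 in Omen and from 0.76 to 3.77 in SC. Among these markers DES and SMTN were lower, by 0.76 ± 0.10 and 0.39 ± 0.14 (adjusted p = 1.66e-06 and 0.0276). One SC Hereford array was highest for smooth muscle: MYH11, the smooth muscle myosin, was at 6.59 there and at most 2.02 on the other SC arrays, and CNN1 was at 6.04 and at most 1.78. Neither MYH11 nor CNN1 passed, both at -0.14, and without that array they were at 0.28 and 0.26 (adjusted p = 0.386 and 0.413).

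Of 10 Schwann cell markers, 2 were lower, S100B among them, and NCAM1 was 2.64-fold higher (adjusted p = 0.00126, limma), while SOX10 at 0.40 did not pass. S100B, which adipocytes also make, ran from 3.71 through 3.98 to 4.54 in Omen and from 4.69 through 5.08 to 5.90 in SC, with no overlap and a difference of -1.08 ± 0.14 (adjusted p = 1.9e-06). Of 7 keratinocyte markers 2 were higher, DSP by 0.80 and SFN by 0.28, and 2 were lower, KRT14 by 0.32 and KRT10 by 0.51. KRT14 lost its call when any of 8 single arrays was left out (adjusted p up to 0.0636). Of 6 pancreatic acinar markers CPB1 was higher by 1.93 with 1 SC array well above background (0.74 with the dim SC values at the lowest signal well above background, and 0.01 with normexp relative to the shift of all probes), CELA1 was lower by 0.86 with another of its probes called the other way, and 4 did not pass. None of the muscle, Schwann, keratinocyte or acinar calls passed with the 24-array block except DES (-0.97, adjusted p = 0.0497). The 96-array block left 2 skeletal muscle and 2 smooth muscle markers lower, and 1 higher and 1 lower in each of the Schwann, keratinocyte and acinar lists.

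Omental fat was also set against kidney and inter-muscular fat for these genes. The Omen minus Kid and Omen minus Inter contrasts share the Omen arrays with Omen minus SC, and they came from 1 limma fit over 60 fat arrays. That fit had terms for depot and breed but none for scan day, and the part of scan day in these contrasts was not tested. Against Kid, 788 genes (7.4%) were higher in Omen and 1658 (15.6%) lower, 2446 (23%) in all. Against Inter, 899 (8.44%) were higher and 569 (5.34%) lower, 1468 (13.8%) in all.

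HOXA10 was at -8.08 ± 0.92 (SD, n = 12) in Omen, -5.10 ± 2.21 in Inter, -1.03 ± 2.19 in Kid and 1.36 ± 0.40 in SC. Omen was below Inter by 2.98 and below Kid by 7.05 (adjusted p = 0.000411 and 3.58e-13). With the dim Omen values set to the lowest signal well above background the Omen minus Inter and Omen minus Kid differences were -1.72 and -5.79. HOXA9 was at 1.36 ± 0.24 in SC, 0.80 ± 0.81 in Kid and -0.37 ± 0.69 in Inter, and Omen at -4.20 ± 0.84 was below both Kid and Inter (adjusted p = 3.4e-21 and 3.58e-16). Inter was itself below SC by 1.73 (adjusted p = 5.03e-07), while Kid minus SC was -0.56 (adjusted p = 0.0816). HOXC10 was at -4.15 ± 0.38 in Omen, -3.01 ± 0.71 in Inter, -1.09 ± 0.83 in Kid and -0.99 ± 0.33 in SC, and Omen was below Kid and Inter (adjusted p = 2.69e-14 and 0.00076). HOXB2, HOXA5 and HOXA4 were higher in Omen than in Kid by 0.72, 0.47 and 0.58 and than in Inter by 0.59, 0.83 and 0.90, all past the threshold. SHOX2 differed from Inter by -3.32 (adjusted p = 8.06e-13) but from Kid by -0.50 (adjusted p = 0.216). IRX5 was higher in Omen than in Kid and Inter, by 0.82 and 1.34 (adjusted p = 0.00288 and 3.65e-06), although it was lower than in SC.

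TMEFF2, at 0.12 ± 0.61 in Omen, was at -3.74 ± 1.18 in Kid and -2.07 ± 0.22 in Inter, and Omen was higher by 3.86 and 2.19 (adjusted p = 1.06e-12 and 6.29e-06). SLIT2 was higher in Omen by 2.40 and 3.45, WFIKKN2 by 3.40 and 2.80, SOX9 by 2.33 and 1.46, and BMP4 by 1.37 and 1.08, each past the threshold against both depots. Other genes that separated Omen from SC did not set Omen apart from both internal depots in the same direction. ADRB3 was higher in Kid (1.25 ± 0.67) than in Omen (-0.18 ± 1.44), an Omen minus Kid difference of -1.43 (adjusted p = 0.0113), and Inter at -1.13 ± 1.42 did not differ from Omen past the threshold (adjusted p = 0.12). GPAT3 was likewise at 3.98 ± 0.66 in Kid and 3.22 ± 0.56 in Omen (difference -0.76, adjusted p = 0.0235). SCD was at 7.46 ± 0.49 in Omen, 7.58 ± 0.54 in Kid and 7.57 ± 0.57 in Inter, with differences of -0.12 and -0.11 that did not pass (adjusted p = 0.776 and 0.8). CXCL14 and ANGPTL5 differed from Kid by 0.32 and 0.24 (adjusted p = 0.676 and 0.794) and from Inter by -3.86 and -4.50 (adjusted p = 1.44e-08 and 4.39e-09).

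MSLN and CFI, which ranged widely within Omen, had a higher mean in Omen than in both internal depots. MSLN was above 0 on 5 Omen arrays only and lay at -6.09 to -3.79 on the other 7. Neither gene was tested against Kid or Inter without those 5 arrays. MSLN was at -5.97 ± 1.07 in Kid and -6.35 ± 1.08 in Inter, below Omen by 3.25 and 3.63 (adjusted p = 8.89e-05 and 2.02e-05). CFI was higher in Omen by 2.94 and 3.02 (adjusted p = 2.77e-06 and 2.02e-06). COL1A1 at 0.51 and -0.53 and CD163 at -0.18 and 0.08 passed against neither (adjusted p = 0.269, 0.274, 0.731 and 0.89).

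No probe passed a test of whether the depot difference depended on breed. The limma F-test of the depot by breed terms left 0 of 34227 probes (0%) at an adjusted p of 0.05, with a lowest adjusted p of 0.999, and 1437 probes had an unadjusted p under 0.05. Within a breed, 4 arrays against 4, 1436 probes passed for Angus, 4408 for Hereford and 8327 for Wagyu x. The Angus arrays include the array with many outlier spots, the 2 Omen arrays scanned apart and the SC array scanned with Omen. Without the array with many outlier spots, the test of dependence on breed left 1331 probes at an unadjusted p under 0.05 and again none past the threshold.

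The study also named DLK1, CLDN10 and TDH from these samples, so they are not independent evidence. DLK1, an inhibitor of fat cell formation found on preadipocytes, ran from 1.57 through a median of 2.28 to 3.35 in Omen and from 2.33 through 2.86 to 3.21 in SC. Its difference of -0.44 ± 0.18 did not pass (adjusted p = 0.0511, limma), and the gene has 5 probes, of which another was higher in Omen by 2.79 (adjusted p = 0.00535). That second probe is the one the study lists, and it points the opposite way from the first, so the direction of DLK1 is not settled here. With the first probe DLK1 passed when any of 9 single arrays was left out, at -0.54 without Omen Angus 4 (adjusted p = 0.00888). CLDN10, a claudin, lay between -6.33 and 0.81 in Omen and between -1.84 and 3.84 in SC, with medians of -1.98 and 2.93. It was lower by 4.68 ± 0.73 (adjusted p = 1.97e-05), although the depots overlapped through 1 SC array. That array, SC Wagyu x 1, was at -1.84, and the other SC arrays lay between 1.88 and 3.84. TDH, a threonine dehydrogenase of mitochondria, was at -3.11, -1.42 and 0.73 against -1.29, 1.02 and 1.98, lower by 2.11 ± 0.46 (adjusted p = 0.000728). Under the 24-array scan day block they were at 0.34, -4.88 and -2.52 and none passed (adjusted p = 0.753, 0.203 and 0.324).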

How the data were processed

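The deposited scanner files hold Agilent Feature Extraction intensity values from a 4x44K 1-colour bovine array, and the processed signal in them was background-corrected by the scanner software before the authors deposited it. The authors' series table holds log2 of the median spot signal minus its median background with a floor of 1, within 0.00015 in all 3285792 values, and supplied the list of 34227 probes tested. Its mixed-model normalization, described in the study's methods, was not found in these values. Here log2 of the processed signal was taken minus the 75th percentile of each array, outlier spots were left out and spots of a probe were averaged. Of the 34227 probes, 3447 lacked at least 1 of the 24 arrays and were fitted on the rest. Depots and breeds follow the labels. Differences came from limma 3.58.1 in R 4.3.3 (lmFit and eBayes, depot and breed as terms) with Benjamini-Hochberg adjustment over all probes and a threshold of 0.05. The test of dependence on breed and a 60-array fit with Kid and Inter used the same values. The number of arrays limits the precision. The scripts were tested on simulated data. Some genes that entered the fits and counts are not reported here and are left out of the plots of gene lists.

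Names were given to 21445 probes (62.7%) through RefSeq accessions or the study's probe table. For a gene with several probes (6341 of 10653) the probe with the highest mean over the 24 arrays was used, and 179 called genes had another probe called the other way. Genes named in the text are the 10 highest and 10 lowest differences whose arrays did not overlap and that were well above background on every array of the higher depot, up to 4 per list by size among those past the threshold and well above background on at least 6 arrays of the higher depot, and 5 genes named by the study. Other list members are given as background to the counts and were picked after their values were seen. The members and lists were chosen with earlier results of these data known. Alternatives were another normalization or background correction, the authors' table, other probe sets, the equal-variance t-test of the study's methods, no breed term, blocks for scan day, slide and replicate number, each breed alone and each array left out. The shared scan day alone, the dim values set to the lowest signal well above background, the fit without the 5 Omen arrays with high MSLN, values relative to the shift of all probes and the test on breed without the array with many outlier spots were chosen after seeing the data. The normexp correction, planned on mean spot signals, used the median spot signal.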

Additional observations from a re-analysis of the deposited data

How the results depend on the processing

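Of the 102 named genes, 97 were past the threshold with all arrays and without any 1 of the 24, and the number of probes past it ran from 15087 to 16308 with 1 array left out, against 15968 with all. The count was 943 with scan day as a block on 24 arrays and 351 on the shared scan day alone, both resting on 1 SC array, and 10913 with scan day over 96 arrays. With 4 arrays against 4 it was 1436 for Angus, 4408 for Hereford and 8327 for Wagyu x. The authors' table as deposited, which is not centred, gave 29236 with 99% of calls higher in Omen and a median shift of 0.85, and 14575 with 52.3% higher after subtracting the 75th percentile. Normexp gave 22544 with 16.4% higher and moved the median of all probes by -0.23. Relative to that shift it gave 3189 genes higher and 2539 lower, against 2007 and 3474 in the main fit. Counts under the other settings lay within 1.5 times of 15968. Replicate numbers mark a place on the slide rather than an animal, and over 10 pairs of arrays with the same number and breed the correlation of deviations had a median of -0.010 (-0.14 to 0.25), so they do not pair the samples. A replicate block gave 15667 and changed the call of 3 of 102 named genes. With scan day as a block on 24 arrays, 24 of the 102 named genes kept their call, 69 lost it and 9 turned sign. On the shared day these were 19, 69 and 14, and over 96 arrays 85, 17 and 0.

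Signs turned as follows, and the cause was not tested. With scan day as a block on 24 arrays the differences were -0.30 for C3, -0.082 for CD8B, 0.34 for CIDEA, -0.53 for CYP26A1, 0.34 for DLK1, -0.26 for DSP, 0.19 for GPD1, -0.10 for RARRES1 and 0.074 for RBP4. On the shared scan day they were -1.54 for C3, -0.12 for CD3E, -0.59 for CD8B, 0.44 for CIDEA, -0.37 for CYP26A1, 0.79 for DLK1, -0.43 for DSP, 0.52 for GPD1, -0.27 for MMRN1, -0.086 for PDPN, -0.27 for PROX1, -0.0079 for RARRES1, 0.19 for RBP4 and 0.22 for SMTN. On the 1 slide with both depots (2 Omen arrays and 1 SC array, no test) they were -0.23 for C7, -0.73 for CYP26A1, -0.070 for DSP, 0.030 for GPD1, -0.35 for MMRN1, 0.0007 for MYH1, 0.28 for RBP4 and 0.46 for SMTN. Relative to the shift of all probes, normexp gave -0.15 for CD8B, -0.36 for CYP26A1, -0.11 for DKK1 and -0.13 for PROX1. With the dim depot set to the lowest signal well above background on each array, where fewer than 6 of its arrays were above it, CYP26A1 was at -0.18. In that setting PROX1 at 0.71, CPB1 at 0.74, MYH1 at -1.08 and MYL2 at -0.51 kept their sign at a smaller size. Quantile normalization gave 0.061 for FABP4, Hereford alone 0.039 for ANGPTL4 and 0.026 for SLC27A6, Angus alone -0.016 for PDPN, the fit without the 5 Omen arrays with MSLN above 0 gave -0.10 for GPM6A, and the probe with the largest moderated t gave 2.79 for DLK1.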
